A study of Homo sapiens with 12 samples.

Results

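The human genes examined here are those whose bodies span 1 Mb or more. They were taken from the RefSeq annotation of GRCh38 as protein-coding genes on chromosomes 1 to 22 with that length between start and end, leaving out symbols that begin with KCN, GRI, GRM or GABR, a rule that removed 2 genes. It gave 64 genes of 19126 protein-coding genes on these chromosomes. Together they spanned 88.2 Mb, or 3.07% of the chromosomes. The longest were RBFOX1 (2.47 Mb), CNTNAP2 (2.30 Mb) and PTPRD (2.30 Mb). The rule uses no measured value.

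Peak lists came from CUT&Tag, in which an antibody guides a transposase to chromatin so that the DNA around the antigen is cut out and sequenced. The cells were HepG2/C3A, a line from a human hepatocellular carcinoma, grown in DMEM with serum and given either 10 mM sodium succinate in the medium or control treatment, described by the design text as vehicle, for 48 h. One antibody recognised H3K27me3, histone H3 trimethylated at lysine 27, and the other, pan-Ksu, recognised succinylated lysine on any protein. Each antibody had 2 libraries per treatment, labelled as biological replicates. The labels do not say whether these were separate cultures, so p-values measure only the spread between these libraries. IgG samples were not analysed here, and no antibody background was subtracted here. Whether the deposited lists were made against an IgG track is not given in the sources used.

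H3K27me3 is laid down by Polycomb repressive complex 2 and marks silent developmental genes, often as broad domains that begin at CpG-rich starts. Succinylation adds an acidic group to lysine, from succinyl-CoA or through acyltransferases, and occurs on histones as well as on many mitochondrial proteins. Very long genes are mostly intron. Many encode adhesion molecules, receptors and scaffolds of neurons, several lie at common fragile sites, and many are little transcribed outside the nervous system or muscle.

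Ksu peaks covered the long genes more densely than their chromosomes in control cells and at about the chromosome level after succinate, whereas H3K27me3 peaks were sparse in them under both treatments. The covered share of the 64 bodies was divided by the share that peaks covered on the same chromosomes. Values for 4 libraries are given throughout in the order control replicate 1, control replicate 2, succinate replicate 1 and succinate replicate 2. For Ksu this ratio was 1.42, 1.43, 1.02 and 0.952, so both succinate libraries lay below both control libraries. For H3K27me3 it was 0.283, 0.219, 0.228 and 0.192, and the treatments overlapped. Every H3K27me3 library lay below every Ksu library. The log2 ratio was 2.38 higher for Ksu than for H3K27me3, and the pooled SD was 0.27 (exact two-sided permutation over 70 arrangements of 8 libraries, p = 0.0286, the smallest possible). Exchanging labels only within a treatment gave an exact permutation p of 0.0556, also the smallest possible there, which does not pass 0.05. The difference was 1.68 against the flanks, 3.96 without KAZN and RANBP2 and 4.93 by the median gene.

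The Ksu log2 ratio averaged 0.51 ± 0.0055 (SD, n = 2) in control and -0.020 ± 0.072 (SD, n = 2) in succinate. The difference of -0.53 was larger than the pooled replicate SD of 0.05. An exact two-sided permutation over the 6 arrangements gave p = 0.333, the smallest this design allows, so it could not pass 0.05. The covered share itself was 4.79%, 9.67%, 7.40% and 11.1% of the bodies, where the chromosome shares gave an expectation of 3.37%, 6.77%, 7.24% and 11.7%. The covered share thus overlapped between treatments, and the separation was in its relation to the chromosomes. Against the flanks of the genes instead of the chromosomes, the ratios were 1.23, 1.22, 1.02 and 0.941 and the difference was smaller, at -0.32 (exact permutation p = 0.333). For H3K27me3, succinate minus control was -0.25, close to the replicate SD of 0.22 (p = 0.667 by exact permutation). That value was -0.063 without control replicate 1, -0.43 without control replicate 2 and -0.12 without succinate replicate 2.

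The lists differed widely in size. Ksu lists on chromosomes 1 to 22 held 76090 to 612943 peaks and covered 2.78% to 11.2% of the chromosomes, with the fewest peaks in control replicate 1 and the most in succinate replicate 2. H3K27me3 lists held 5513 to 18962 peaks and covered 4.05% to 6.88%. Peak lists do not give the sequencing depth, and counting intervals are therefore left out. When the 76090 peaks of highest total signal were taken from every Ksu library, the long genes had ratios of 1.42, 1.66, 0.999 and 0.956, which again did not overlap. H3K27me3 peaks overlapped 0 of 12 hepatocyte marker genes in any library. Of 6 neuron marker genes they overlapped 2, SNAP25 and RBFOX3, in at least 1 library, and 1 of these in all 4. Over all protein-coding genes, 25.8% had a peak in any library. With so few markers beside that share, these values do not decide the cell type.

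Ksu cover was then set out by gene length. In the control libraries the Ksu ratio was 0.543 and 0.713 for genes under 10 kb, 0.761 and 0.793 for those of 100 to 250 kb, 1.37 and 1.27 for those of 500 to 1000 kb and 1.42 and 1.43 for the 64 long genes. In the succinate libraries the same classes had 0.893 and 0.847, 1.06 and 1.16, 1.15 and 1.08, and 1.02 and 0.952. Control libraries thus had their highest ratio in the longest class, and succinate libraries had theirs in classes between 100 and 1000 kb. The other 3144 genes of 100 kb or more, pooled, had ratios of 0.999, 0.989, 1.11 and 1.14, higher in succinate. By length, their log2 succinate minus control was 0.51 at 100 to 250 kb and 0.066 at 250 to 500 kb. It was -0.24 at 500 to 1000 kb, so lower in succinate there as well. The log2 difference between treatments was 0.71 lower for the long genes than for these 3144 genes pooled and exceeded the pooled SD of 0.07. By exact permutation p was 0.333, the smallest possible. This gap was smaller against the flanks, at -0.27, and larger when medians of single genes were compared, at -1.09.

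**Figure D1:**
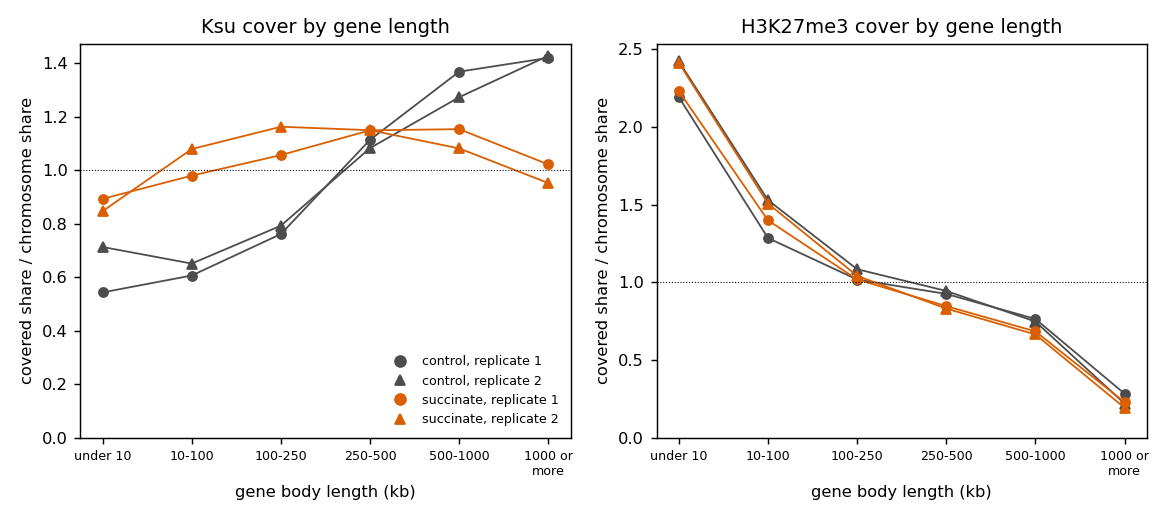
Covered share of gene bodies divided by the covered share of the same chromosomes (vertical axis, no unit) in 6 classes of gene body length in kb (horizontal axis), with 1 point per library and lines joining the classes of a library. For Ksu the control libraries rise to 1.42 and 1.43 in the longest class while the succinate libraries are at 1.02 and 0.952, and for H3K27me3 all 4 libraries descend to between 0.192 and 0.283.

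H3K27me3 followed length in the opposite direction in all 4 libraries. Genes under 10 kb had H3K27me3 ratios of 2.19, 2.42, 2.23 and 2.41, and genes of 500 to 1000 kb had 0.764, 0.747, 0.684 and 0.664. The long genes were lower again. The difference between treatments in the long genes departed from that in the other genes of 100 kb or more by -0.16, which is less than the replicate SD of 0.25 (p = 0.667 by exact permutation). Without control replicate 1 that value was 0.051, without control replicate 2 it was -0.37, without succinate replicate 1 it was -0.29 and without succinate replicate 2 it was -0.035.

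The threshold of 1 Mb did not separate genes of a kind. Just over it were NKAIN2, ADAMTSL1 and NCKAP5, of 1022, 1004 and 1003 kb, whose H3K27me3 cover was at most 0.550% in any library. Just under it were ASTN2, CAMTA1 and DLGAP2, of 992, 984 and 971 kb. ASTN2 had H3K27me3 over 0.990%, 0.375%, 0.361% and 0.448% of its body, as sparse as in the genes just over the threshold. CAMTA1 had H3K27me3 over 55.9%, 47.5%, 60.7% and 55.9% of its body, and DLGAP2 over 32.3%, 9.78%, 22.6% and 13.1%. Ksu ratios ran from 1.47 to 3.07 in ASTN2, from 1.30 to 3.86 in CAMTA1 and from 0.891 to 1.43 in DLGAP2.

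Gene starts were examined first, since H3K27me3 domains commonly begin at CpG-rich starts. RefSeq promoter entries existed for 53 of the 64 genes, with 123 starts. The starts of the other 11 genes were not analysed here. Each start was taken with 1 kb on either side. Windows with H3K27me3 in all 4 libraries numbered 0 of 123, beside 8.02% of 21156 starts of all protein-coding genes. In 97 windows (78.9%) there was none in any library, beside 81.5%. For some genes the outermost entry lies inside the annotated body, by 706 kb in KAZN and 84 kb in PRKG1. Their annotated beginnings, chr1:13892824 and chr10:50990888, were thus outside the windows, and both lay under H3K27me3 peaks in all 4 libraries. The 0 of 123 therefore holds for the entries and not for every annotated start. The starts of 1 gene lie close together and share peaks, so they are not independent.

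H3K27me3 windows at the starts were mostly those of a single library. The mean H3K27me3 cover of the windows was 20.1%, 0.813%, 7.32% and 1.63%, highest in control replicate 1, beside 15.7%, 8.77%, 13.0% and 10.4% over all starts. The starts covered in 3 of 4 libraries belonged to KAZN, which encodes a scaffold protein of cell junctions, to TENM3, a teneurin that guides neuronal wiring, and to PTPRT, a receptor-type tyrosine phosphatase. The KAZN start lies 706 kb and the TENM3 start 696 kb inside the annotated body. The window was fully covered at KAZN and PTPRT in all but control replicate 2, and at TENM3 in all but succinate replicate 2.

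The 250 bases before these starts are shown beside those of 3 starts with no H3K27me3 in their window in any library, to let their CG content be seen. The RBFOX1 start shown lies 779 kb inside the annotated body. The annotated beginning of RBFOX1 (chr16:5239721) lay under an H3K27me3 peak in every library except control replicate 2. CNTNAP2 is a neurexin-like adhesion protein of axons, DLG2 a scaffold of the postsynaptic density and RBFOX1 an RNA-binding splicing regulator of neurons and muscle. Sequences are from RefSeq, build GRCh38.p14, written 5′ to 3′ on the strand of the gene, with every CG in capitals. The positions are chr1:14598435-14598684 (plus strand) for KAZN, chr4:182143713-182143962 (plus) for TENM3, chr20:43189907-43190156 (minus) for PTPRT, chr7:146116551-146116800 (plus) for CNTNAP2, chr11:85628374-85628623 (minus) for DLG2 and chr16:6018774-6019023 (plus) for RBFOX1.
KAZN: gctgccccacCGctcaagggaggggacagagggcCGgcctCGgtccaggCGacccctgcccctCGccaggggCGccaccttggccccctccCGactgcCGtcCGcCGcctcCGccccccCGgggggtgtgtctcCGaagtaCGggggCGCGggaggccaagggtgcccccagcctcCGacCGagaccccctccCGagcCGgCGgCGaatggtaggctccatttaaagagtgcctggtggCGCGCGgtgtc
TENM3: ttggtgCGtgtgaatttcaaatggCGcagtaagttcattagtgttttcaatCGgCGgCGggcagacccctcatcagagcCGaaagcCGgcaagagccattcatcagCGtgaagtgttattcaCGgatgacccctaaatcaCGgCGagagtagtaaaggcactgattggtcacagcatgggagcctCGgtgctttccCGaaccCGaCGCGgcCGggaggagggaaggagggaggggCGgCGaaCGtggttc
PTPRT: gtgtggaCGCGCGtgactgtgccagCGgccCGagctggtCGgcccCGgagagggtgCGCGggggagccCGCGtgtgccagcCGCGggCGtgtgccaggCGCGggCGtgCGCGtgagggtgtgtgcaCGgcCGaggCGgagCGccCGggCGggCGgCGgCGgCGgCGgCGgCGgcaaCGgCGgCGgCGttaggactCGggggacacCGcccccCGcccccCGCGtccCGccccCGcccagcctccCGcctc
CNTNAP2: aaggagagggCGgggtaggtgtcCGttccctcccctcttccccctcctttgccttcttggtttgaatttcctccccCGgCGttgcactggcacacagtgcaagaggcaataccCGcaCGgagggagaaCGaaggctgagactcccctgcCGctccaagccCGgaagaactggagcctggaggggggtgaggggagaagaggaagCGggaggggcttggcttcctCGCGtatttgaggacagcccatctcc
DLG2: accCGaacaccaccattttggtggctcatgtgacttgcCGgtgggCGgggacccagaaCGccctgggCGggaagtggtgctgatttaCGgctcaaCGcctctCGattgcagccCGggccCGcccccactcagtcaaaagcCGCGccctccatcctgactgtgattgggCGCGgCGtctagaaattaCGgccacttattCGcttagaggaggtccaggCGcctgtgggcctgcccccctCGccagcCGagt
RBFOX1: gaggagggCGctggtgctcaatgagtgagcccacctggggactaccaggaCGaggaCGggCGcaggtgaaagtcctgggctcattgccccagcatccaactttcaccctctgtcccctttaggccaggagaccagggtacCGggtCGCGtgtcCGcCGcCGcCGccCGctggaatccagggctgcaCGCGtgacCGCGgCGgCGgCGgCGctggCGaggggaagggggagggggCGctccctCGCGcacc

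The dinucleotide CG, which reads the same on both strands, occurred 25 times in the KAZN sequence, 20 in TENM3 and 44 in PTPRT. It occurred 12 times in CNTNAP2, 20 in DLG2 and 24 in RBFOX1, so starts without H3K27me3 could be as rich in CG as the KAZN and TENM3 starts. Over the 123 windows of the long genes, the median was 25 CG at the 26 starts with H3K27me3 in 1 to 3 libraries and 7 at the 97 starts with none. The median over all starts of the long genes was 9, and over all protein-coding starts it was 17. At least 1 CG was present upstream of 94.3% of the long-gene starts and 96.8% of all starts.

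Single genes were then compared for Ksu. In 44 of the 64 genes both succinate libraries lay below both control libraries in ratio to the chromosome, beside 14.2% of the 3201 genes of 100 kb or more. In 6 genes both lay above, beside 48% of those genes, and in 14 the treatments overlapped. The median log2 difference was -0.57 over the long genes and 0.58 over all 3201. In covered percent of the body, without reference to the chromosome, the succinate libraries were lower in 4 genes, higher in 14 and overlapping in 46. That order in percent was not counted over other genes. Peaks covered 2.78%, 6.25%, 6.47% and 11.2% of the chromosomes, so both succinate libraries were also higher there. In control 47 genes were above their chromosome in both libraries and 7 below in both, and in succinate 17 were above and 32 below. Counted by library, 47, 57, 28 and 21 long genes were above, beside 34.5%, 35.9%, 52.4% and 68.4% of the other genes of 100 kb or more.

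No gene passed limma with Benjamini-Hochberg adjustment at 0.05 for Ksu, with 0% of 3201 genes called and a lowest adjusted p of 0.209. At an unadjusted p below 0.05, limma gave 17 long genes lower in succinate, beside 5.25% of all genes tested, and 1 long gene higher, beside 15.7%. Fitted to the 303 genes of 500 kb or more alone, limma called 61 genes. The 11 long genes lower in succinate (17.2%) were near the 15.8% of all 303 genes, and 0 long genes were higher, beside 4.29%. With a control library left out it called more, 617 genes without control replicate 1 and 1421 without control replicate 2. Lower in succinate were 5 and 13 long genes, beside 3.16% and 7.22% of all genes, and higher were 0 and 2, beside 16.1% and 37.2%. The remaining control library is then assumed to vary like the succinate pair. In simulated data of this size, log2 changes of 1 and of 2 were recovered in 0 of 200 changed genes and changes of 4 in 127. Under the replicate spread that was simulated, the fit thus did not recover log2 changes of 1 or 2.

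**Figure D2:**
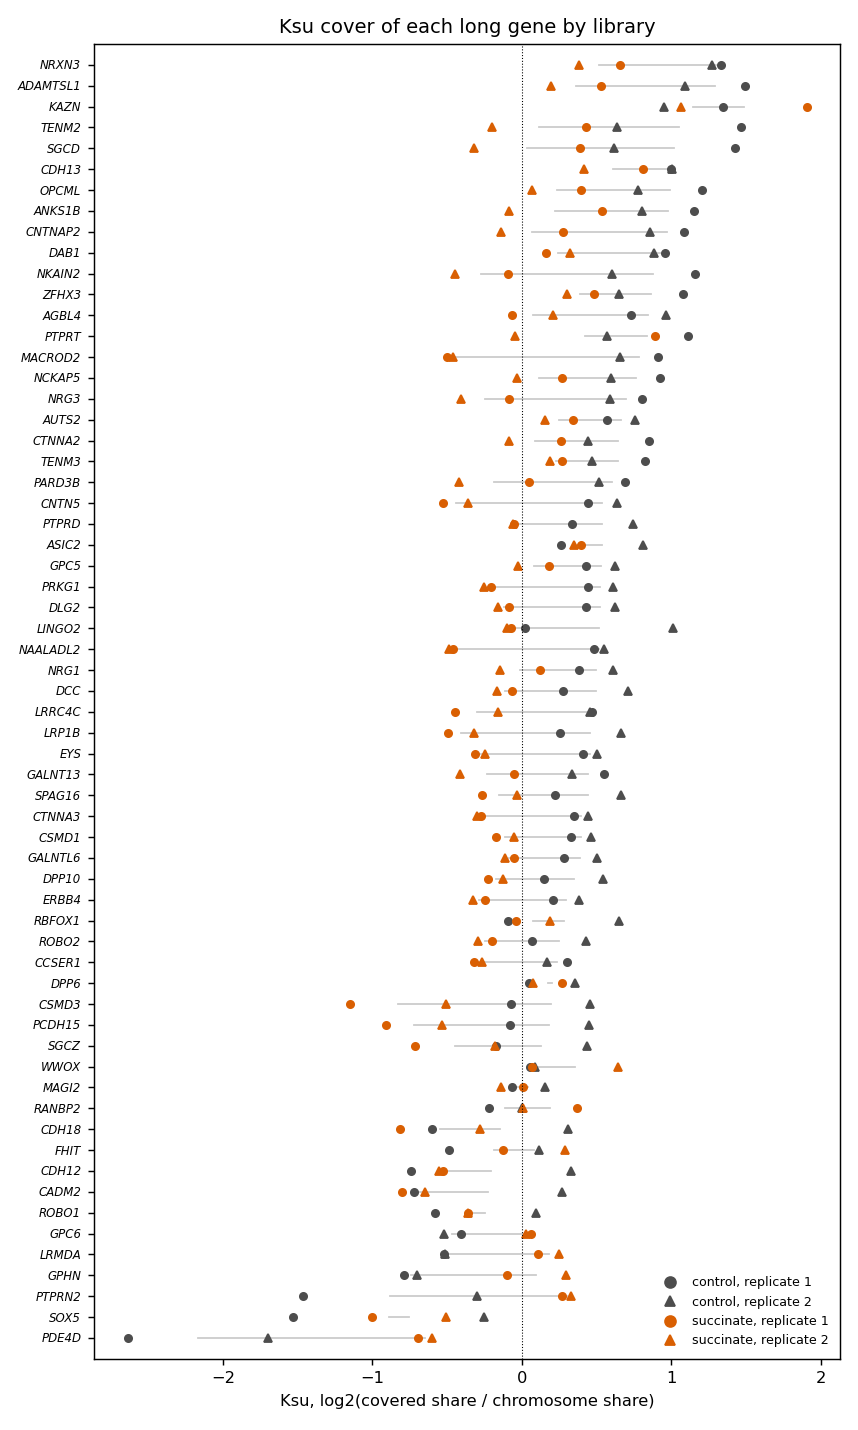
Ksu log2 ratio of covered share to chromosome share (horizontal axis, log2 scale) for 62 of the 64 long genes (vertical axis, ordered by the control mean), with 1 point per library and a grey line joining the treatment means. Both succinate points are left of both control points in 43 of the genes drawn, among them MACROD2 and CDH13, and right of them in 6, among them PDE4D and GPHN.

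The adhesion and guidance genes formed the largest group, with 25 long genes. Both succinate libraries were lower in Ksu ratio in 20 of them and higher in 1, GPC6. Over all 64 long genes these shares were 68.8% and 9.38%. They were 14.2% and 48% over the 3201 genes of 100 kb or more. The median log2 ratio of the 25 genes was 0.46 in control and -0.23 in succinate, and 18 were above their chromosome in both control libraries. NRXN3, a neurexin of presynaptic terminals, had Ksu ratios of 2.62, 2.44, 1.59 and 1.31. CNTNAP2 had 2.19, 1.82, 1.22 and 0.905, and CDH13, a cadherin held to the membrane by a lipid anchor, had 2.03, 2.02, 1.76 and 1.33. In each of these 3 genes the succinate libraries were below the controls, and NRXN3 and CDH13 stayed above their chromosomes in every library.

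Some other adhesion genes were covered less than their chromosomes in most libraries. The neighbouring cadherin genes CDH18 and CDH12 on chromosome 5 had Ksu ratios of 0.648, 1.24, 0.561 and 0.821 and of 0.587, 1.26, 0.689 and 0.677. CADM2, an immunoglobulin-type adhesion molecule of synapses, had 0.586, 1.21, 0.564 and 0.635. In these 3 genes control replicate 2 was the only library above 1, and the treatments overlapped. The guidance receptor genes ROBO2 and DCC had both succinate libraries lower, whereas ROBO1, with 0.652, 1.07, 0.773 and 0.777, overlapped. Of the glypicans, which carry heparan sulfate at the cell surface, GPC5 had 1.37, 1.55, 1.14 and 0.983 and its neighbour GPC6 had 0.740, 0.690, 1.04 and 1.02, so the pair on chromosome 13 differed in order.

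CSMD3, a large transmembrane protein with CUB and sushi domains, had Ksu ratios of 0.950, 1.37, 0.441 and 0.699. Succinate minus control was -1.02 on the log2 scale, and replicates had a pooled SD of 0.41 (limma, Benjamini-Hochberg adjusted p = 0.247). TENM2, a teneurin, had 10.2%, 11.8%, 7.30% and 8.79% of its body under Ksu peaks. It was 1 of the 4 genes whose covered percent, and not only the ratio, was lower in both succinate libraries. The others were MACROD2, SGCD and NKAIN2.

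Among the 12 genes for synaptic and other scaffold or membrane-complex proteins, 8 had both succinate libraries lower in Ksu ratio and 1, PTPRN2, had both higher. Over all long genes 68.8% were lower and 9.38% higher, and over all genes of 100 kb or more 14.2% and 48%. NKAIN2, which encodes a membrane protein that interacts with the sodium pump, had ratios of 2.26, 1.52, 0.936 and 0.731 and a log2 difference of -1.15 (limma, Benjamini-Hochberg adjusted p = 0.209). SGCD, a sarcoglycan of the dystrophin complex in muscle, had 2.73, 1.54, 1.31 and 0.799, a difference of -0.99 (limma adjusted p = 0.226). In both genes control replicate 1 stood highest and succinate replicate 2 lowest. KAZN was the exception of this group in level: Ksu covered 4.60%, 9.74%, 22.2% and 22.2% of its body, with ratios of 2.63, 1.95, 3.79 and 2.10. Its percent was higher in both succinate libraries, and its ratio overlapped between treatments.

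The 15 genes for receptors, ligands, kinases, phosphatases and other enzymes had 9 with both succinate libraries lower and 2 with both higher. These 2 were PDE4D and PTPRN2, the latter also counted among the scaffold genes. The shares were 68.8% lower and 9.38% higher over all long genes, and 14.2% and 48% over all genes of 100 kb or more. The neuregulin ligands NRG3 and NRG1 had Ksu ratios of 1.76, 1.51, 0.942 and 0.752 and of 1.32, 1.54, 1.09 and 0.903. Their receptor ERBB4 had 1.16, 1.31, 0.841 and 0.797. In the ligands and the receptor alike, both succinate libraries were lower. Of the receptor phosphatases, PTPRD had 1.28, 1.69, 0.964 and 0.959, without overlap, and PTPRT had 2.17, 1.49, 1.86 and 0.966, which overlapped.

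MACROD2, which encodes a hydrolase that removes ADP-ribose from proteins, had the succinate libraries furthest below the controls in Ksu ratio. Ksu peaks covered 14.3%, 11.9%, 10.4% and 10.2% of its body, with ratios of 1.89, 1.58, 0.704 and 0.725. On the log2 scale succinate minus control was -1.26, and the replicate SD was 0.13 (limma, SE 0.29, Benjamini-Hochberg adjusted p = 0.209). NAALADL2, a peptidase-like protein, had 1.42, 1.47, 0.723 and 0.710, a difference of -0.99 (limma adjusted p = 0.209). In both genes the controls were above and the succinate libraries below the chromosome.

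PDE4D stood at the opposite end. It encodes a phosphodiesterase that breaks down cyclic AMP and had the lowest mean Ksu ratio of the 64 genes. Ksu peaks covered 0.502%, 2.26%, 3.30% and 6.62% of its body, with ratios of 0.138, 0.299, 0.612 and 0.656. All 4 libraries were below the chromosome, and both succinate libraries were above both controls, by 1.52 on the log2 scale, where the replicate SD was 0.47 (limma, Benjamini-Hochberg adjusted p = 0.406).

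The other genes with both succinate libraries higher were few, and each was below its chromosome in both controls. PTPRN2, a phosphatase-like protein of secretory granules, had Ksu ratios of 0.325, 0.809, 1.21 and 1.26 (limma, Benjamini-Hochberg adjusted p = 0.231). GPHN, which encodes gephyrin, a scaffold of inhibitory synapses that also serves molybdenum cofactor synthesis, had 0.549, 0.607, 0.931 and 1.23 (limma adjusted p = 0.273). LRMDA, known for a role in melanocyte differentiation, had 0.692, 0.696, 1.08 and 1.19 (limma adjusted p = 0.273). RANBP2, a nuclear pore protein, had 0.857, 0.998, 1.29 and 1.00, with its nearest control and succinate values almost touching.

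Genes listed as having products in most cell types numbered 7. Their median log2 difference in Ksu ratio was 0.26, beside -0.57 over all 64. Only PARD3B, a cell polarity protein, had both succinate libraries lower, and LRMDA and PDE4D had both higher. Of all long genes 68.8% were lower and 9.38% higher, and of all genes of 100 kb or more 14.2% and 48%. WWOX, an oxidoreductase, had 1.04, 1.06, 1.05 and 1.57, and FHIT, a dinucleoside hydrolase, had 0.701, 1.08, 0.914 and 1.22. In WWOX succinate replicate 2 stood apart from the other 3 libraries, and in FHIT the treatments overlapped. No expression was measured in these samples. The list was drawn up from general knowledge, but with earlier results of these data known, so its median is only a description.

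The 22 genes listed at common fragile sites, which overlap the other groups, had 14 lower and 3 higher in both succinate libraries. Their median log2 difference was -0.51, beside -0.57 over all long genes. Lower and higher shares were 68.8% and 9.38% over all long genes, and 14.2% and 48% over all genes of 100 kb or more. The 3 genes for transcription factors and RNA-binding proteins held 1 lower, AUTS2, which encodes a partner of a Polycomb complex. The others were RBFOX1, with Ksu ratios of 0.936, 1.58, 0.973 and 1.14, and SOX5, a factor of cartilage and neural development, with 0.321, 0.837, 0.493 and 0.699. Both overlapped between treatments, and SOX5 was below its chromosome in all 4 libraries. Of the 8 genes in no list, ADAMTSL1, a secreted matrix protein, had 2.94, 2.15, 1.46 and 1.14, and ZFHX3, a homeobox zinc-finger factor, had 2.14, 1.58, 1.40 and 1.23. In both genes the succinate libraries were lower and all 4 libraries were above the chromosome.

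Length within the long genes went with little of this variation. Across the 64 genes, Spearman's rho between length and mean Ksu log2 ratio was 0.039 in control and -0.12 in succinate, a description across genes that share libraries. The libraries of a treatment ranked the genes alike, with Spearman's rho of 0.71 between the control libraries and 0.73 between the succinate libraries. Pearson's r for the same pairs was 0.81 and 0.75. Ksu peaks in the long genes were as wide as elsewhere, with median widths of 960, 452, 571 and 462 bp beside 978, 444, 583 and 469 bp over chromosomes 1 to 22. They were denser in control, with 46.1 and 195 peaks per Mb in the long genes beside 26.5 and 129 per Mb of chromosome. In succinate the densities were 118 and 215 beside 101 and 213.

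The Ksu ratio was nearly level along the bodies. The 53 genes with a known strand were divided into 10 equal parts from the gene start. In the control libraries the ratio ran from 1.24 to 1.57 and from 1.36 to 1.51 over the parts, and in the succinate libraries from 0.943 to 1.10 and from 0.908 to 1.05. Every part was higher in both control libraries than in both succinate libraries. The lowest part was the first in both control libraries.

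**Figure D3:**
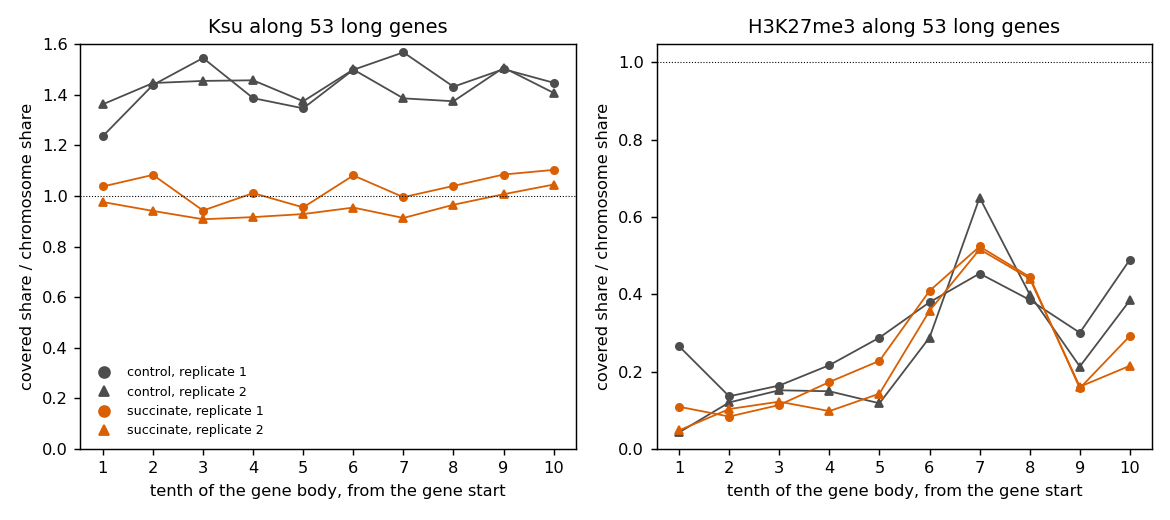
Covered share divided by chromosome share (vertical axis, no unit) in 10 equal parts of the gene body from the gene start (horizontal axis), pooled over 53 long genes with a known strand, with 1 line per library. Ksu control lines lie between 1.24 and 1.57 and succinate lines between 0.908 and 1.10, and H3K27me3 is highest in part 7 in 3 libraries.

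H3K27me3 lay in few of the long genes and in few places within them. Of the 64 genes, 9 had a peak in all 4 libraries (14.1%, beside 14.8% of the other genes of 100 kb or more), 29 in 1 to 3 libraries and 26 in none (40.6%, beside 65.6%). Genes with a peak numbered 38, 12, 20 and 12, most in control replicate 1, and in 18 genes control replicate 1 was the only library with one. A long body offers more room for a peak than a short one, so these shares do not compare density. The 9 genes with a peak in all 4 libraries were KAZN, PRKG1, OPCML, ANKS1B, GPHN, CDH13, ASIC2, RANBP2 and DPP6.

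RANBP2 and KAZN held most of the H3K27me3 bases of the long genes in every library except control replicate 1. RANBP2 had 39.3%, 34.5%, 39.2% and 34.9% of its body under H3K27me3 peaks and KAZN 29.6%, 20.8%, 30.4% and 24.6%. The treatments overlapped in both. The next highest value in any library was the 12.1% of ZFHX3. Together RANBP2 and KAZN accounted for 43.4%, 75.2%, 63.7% and 79.7% of the H3K27me3 bases in long genes. Without them the pooled H3K27me3 ratio was 0.165, 0.056, 0.085 and 0.040, and succinate minus control was -0.71 on the log2 scale, less than the replicate SD of 0.95 (p = 0.667 by exact permutation).

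Most of the H3K27me3 in RANBP2 lay over 2 other genes. As RefSeq gives it, its body (chr2:108719482-109842301) overlaps 6 other protein-coding genes. EDAR, the ectodysplasin receptor, had 79.2%, 74.0%, 79.2% and 73.8% of its body covered, and SH3RF3, a signalling scaffold, had 78.2%, 69.0%, 79.9% and 71.9%. Together they held 83.5%, 84.9%, 85.1% and 86.6% of the H3K27me3 bases in RANBP2. The other 4 genes, CCDC138, SEPTIN10, SOWAHC and RGPD5, had 0% in every library. KAZN (chr1:13892824-15118043) overlaps no other protein-coding gene. Its longest peak was 58448, 95083, 94730 and 151495 bp, and the last, at chr1:14754663-14906157, was the longest in any long gene. In control replicate 2 and succinate replicate 1 that longest KAZN peak lay just before it, at chr1:14653029-14748111 and chr1:14652518-14747247.

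Smaller H3K27me3 domains were found in genes of several roles. OPCML, a lipid-anchored adhesion molecule of neurons, had 7.86%, 2.04%, 4.64% and 1.44% of its body covered. DPP6, an auxiliary subunit of voltage-gated potassium channels, had 9.06%, 2.84%, 3.60% and 3.24%. GPHN, whose body overlaps 13 other protein-coding genes, had 5.10%, 2.88%, 5.09% and 3.49%. In these genes every library had a peak, and replicate 1 of a treatment was above its replicate 2.

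In other genes H3K27me3 was absent from part of the libraries. ZFHX3 had 12.1%, 0%, 7.68% and 2.04% of its body covered, and PTPRT had 8.39%, 0%, 1.95% and 0.212%. Control replicate 2 was the library at 0 in both. TENM2 had 7.16%, 4.18%, 2.54% and 0%. With PRKG1, TENM3 and AUTS2 it was 1 of 4 genes lower in covered percent in both succinate libraries than in both controls, while 0 were higher. For H3K27me3 too, the order in percent was not counted over other genes. AUTS2 had 2.64%, 0.612%, 0.485% and 0%. AGBL4, a tubulin deglutamylase, had 1.31% in control replicate 1 and no peak in the other libraries.

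**Figure D4:**
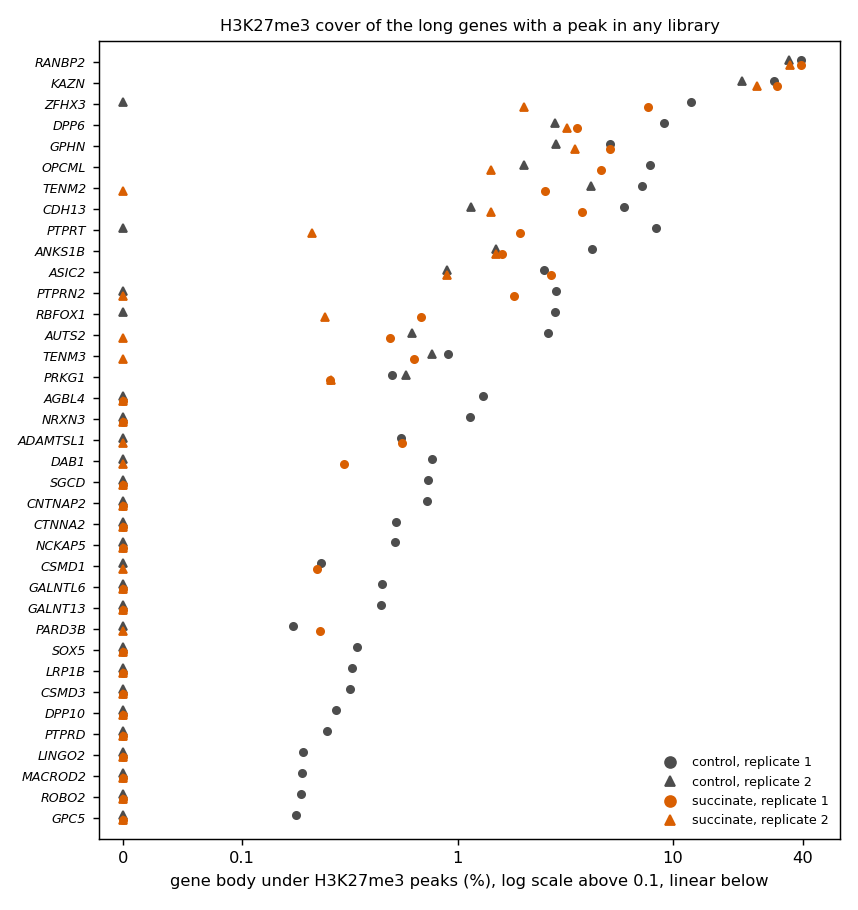
Percent of the gene body under H3K27me3 peaks (horizontal axis, logarithmic above 0.1% and linear below) for 37 of the 38 long genes with a peak in any library (vertical axis, ordered by the mean), with 1 point per library. RANBP2 and KAZN lie between 20.8% and 39.3% in all 4 libraries, and 17 of the genes drawn have a point above 0 only for control replicate 1.

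Among the 38 long genes with a peak in any library, 22 had both succinate libraries below both controls in log2 ratio to the chromosome, beside 36.9% of 1118 genes tested, and 0 were above, beside 6.08%. For genes without a peak in most libraries this order rests on the 0.1 added to each percent and on the chromosome share, and in covered percent only the 4 genes named above were lower. limma with Benjamini-Hochberg adjustment called 0% of the 1118 genes for H3K27me3, with a lowest adjusted p of 0.996. It called 29 genes without control replicate 1, 274 without control replicate 2 and 26 without succinate replicate 1, of which 0, 13 and 0 were long genes. Those 13 were lower in succinate. Over all genes tested, the shares lower were 1.25%, 22% and 2.15% in these fits and the shares higher 1.34%, 2.5% and 0.179%. At an unadjusted p below 0.05 it gave 0 long genes, beside 2.24% of all genes lower and 0.805% higher. Simulated log2 changes of 2 were recovered in 0 of 200 genes and changes of 4 in 68.

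Along the body, the H3K27me3 ratio in the first part was 0.265, 0.042, 0.109 and 0.048. In the seventh part it was 0.454, 0.650, 0.524 and 0.516. The seventh part was the highest in all libraries except control replicate 1, where the last part reached 0.490. The seventh part held peaks in 6 and 2 of the 53 genes in the control libraries, so its height comes from few genes. Without KAZN and RANBP2 the seventh part was at 0.102, 0, 0.076 and 0, and the last part was the highest in all 4 libraries, at 0.490, 0.344, 0.274 and 0.178.

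The Ksu ratio was then set beside H3K27me3 gene by gene. Over the 64 genes, Spearman's rho between the H3K27me3 covered percent and the Ksu log2 ratio was 0.46 in control and 0.70 in succinate, and 0.49 and 0.68 without KAZN and RANBP2. Pearson's r was 0.043 and 0.44. Among the 38 genes with H3K27me3 in any library, rho was 0.25 in control and 0.73 in succinate and r was -0.064 and 0.45, so the control relation was weak. These are descriptions across genes that share libraries, base composition and chromosomes. The median Ksu log2 ratio of the 9 genes with H3K27me3 in all 4 libraries was 0.54 in control and 0.22 in succinate. It was 0.64 and 0.071 in the 29 genes with H3K27me3 in 1 to 3 libraries and 0.26 and -0.28 in the 26 genes with none. Both succinate libraries were lower in Ksu ratio in 4 of the 9, 24 of the 29 and 16 of the 26. Over all long genes that share was 68.8%, and over the 3201 genes of 100 kb or more it was 14.2%.

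**Figure D5:**
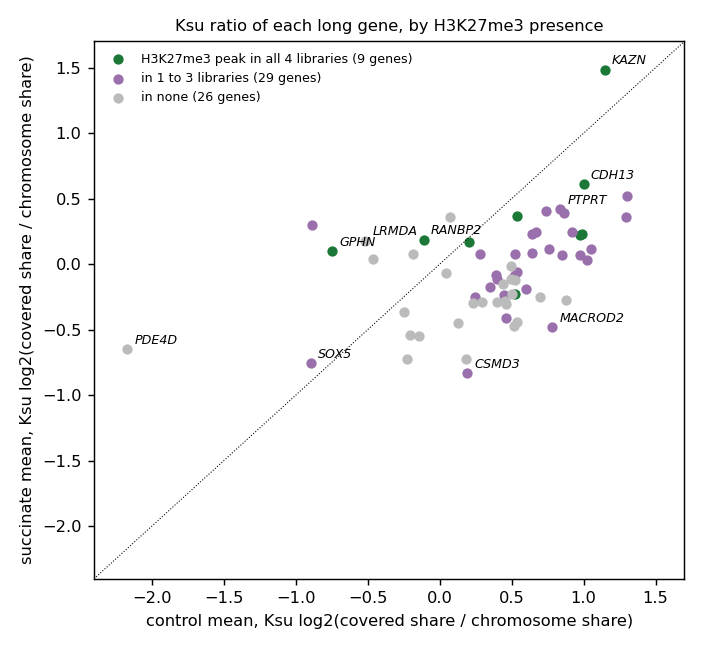
Mean Ksu log2 ratio of each long gene in succinate (vertical axis) against control (horizontal axis), both log2 scale with 2 libraries per mean, coloured by the number of libraries with an H3K27me3 peak, and a dotted line where both are equal. Of the 64 genes, 54 lie under the line, and PDE4D, LRMDA, GPHN, RANBP2 and KAZN are among those over it.

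Within the long genes, Ksu peaks covered 8.39%, 10.3%, 18.2% and 19.0% of the bases under H3K27me3 peaks in the library of the same treatment and replicate number. The bodies as a whole had 4.79%, 9.67%, 7.40% and 11.1%, so the H3K27me3 bases were above the bodies in each of the 4 pairs. The log2 of this relation was 0.81, 0.087, 1.30 and 0.77. Succinate minus control was 0.59, where the replicate SD was 0.45 (p = 0.667 by exact permutation), and the treatments overlapped. It was 1.48 with equal numbers of peaks, 2.41 at a common lowest signal and 0.016 against the Ksu share of the chromosomes. It was 0.95 without control replicate 1, 0.23 without control replicate 2 and 0.33 without succinate replicate 1. Without KAZN and RANBP2 the Ksu cover of H3K27me3 bases was 8.60%, 8.91%, 10.2% and 17.3% and that of the bodies 4.79%, 9.69%, 7.10% and 10.9%. Control replicate 2 was then below its bodies. The other genes of 100 kb or more also had log2 values above 0, at 0.79, 0.29, 0.94 and 0.40.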

How the data were processed

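Peak lists of 8 CUT&Tag libraries of HepG2/C3A cells were used, 4 per antibody, with 2 replicates per treatment. Groups and replicate numbers came from the sample titles. The authors deposited 1 list per library, made with SEACR in its stringent mode on build hg38, per the submitters' processing notes and the names of the lists. Each list gives peak coordinates and, as deposited by the authors, the total signal and the highest signal of each peak. Aligner, signal scaling, control track and threshold are not given in the sources used here. Read depth is unknown, and the lowest total signal of a listed peak ranged from 49 to 8977 signal steps in Ksu lists and from 51892 to 330250 in H3K27me3 lists. No batch or date is given in the labels. Signal was used only to rank or filter peaks.

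Gene extents, strands and promoter sequences came from RefSeq (GRCh38.p14). All 64 genes matched by symbol. Positions in exons or introns were not assigned. For each library, the bases of gene bodies under peaks were divided by the bases that the covered share of the same chromosome would give. Per-gene log2 ratios had 0.1 added to both percents. Treatments were compared by exact two-sided permutation of the library labels, and genes of 100 kb or more by limma 3.58.1 with a mean-variance trend in R 4.3.3 and Benjamini-Hochberg adjustment, threshold 0.05, after removing genes at 0 in all 4 libraries. limma was tested on simulated data. Intervals and permutations were handled in Python 3.11.15 with numpy 2.4.6 and pandas 2.3.3, and figures used matplotlib 3.10.9. scipy 1.17.1 was also loaded.

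Genes were named by rule: the 3 longest, the 6 highest and 6 lowest in mean Ksu ratio, the 10 highest in H3K27me3 percent, the 5 largest rises and falls per antibody among genes whose treatments did not overlap, and the neighbours of the length threshold. Other genes named by role, such as NRG1, NRG3, ERBB4, ROBO1, ROBO2, DCC, GPC5, FHIT, WWOX and TENM3, were picked after their values were seen. Single-gene results for some long genes are not reported here, although they enter the counts and pooled values. The genes, the gene lists and the tests were chosen with earlier results of these data known. Alternatives were the 50% of peaks with highest signal, equal numbers of peaks, a common floor of total signal, peaks of at least 500 bp, merging within 1 kb, other yardsticks, the median gene, pseudocounts of 0.02 and 0.5, other gene length limits, a block for the replicate number, and the omission of each replicate. Leaving out RANBP2, or KAZN and RANBP2, was added after the data were seen.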

Additional observations from a re-analysis of the deposited data

How the results depend on the processing

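Of 120 alternative values for 8 results, 89 stayed within the spread of the replicates, on the same side of the threshold or, for limma, at the same number of genes called. A block for the replicate number cannot move a pooled difference, only its p-value, so those values were the same by design. Every H3K27me3 peak was at least 500 bp long, so that filter left the H3K27me3 lists unchanged. Results from H3K27me3 alone could then only stay the same, and they are among the 89. The Ksu difference between treatments in long genes stayed negative in all its alternatives. It was -0.60 with the 50% of peaks of highest signal, -0.65 with equal numbers of peaks, -0.74 at a common floor, -0.58 with peaks of at least 500 bp, -0.61 against chromosomes 1 to 22 together and -0.32 against the flanks. Leaving out single replicates gave -0.58 to -0.48. At the common floor only 2507 Ksu peaks remained in control replicate 2. The gap between long genes and other genes of 100 kb or more in Ksu was -0.81 with the 50% of peaks of highest signal, -0.89 with equal numbers, -1.03 at the common floor, -0.27 against the flanks and -1.09 by medians of genes. Single replicates left out gave -0.78 to -0.63.

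For H3K27me3 the treatment difference was -0.55 by the median gene and -0.71 without KAZN and RANBP2, and -0.43 to -0.063 with single replicates left out. Its gap to other genes of 100 kb or more was -0.50 by medians and changed sign without control replicate 1, to 0.051, with -0.37 at the other end. Ksu cover of H3K27me3 bases changed by 1.48 with equal numbers, 2.41 at the common floor and 0.016 against the chromosomes, and by 0.23 to 0.95 with single replicates left out. The causes were not tested.

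Counts of genes past the limma threshold were 28 for Ksu against chromosomes 1 to 22 together and 61 among genes of 500 kb or more, where fewer genes were tested. For H3K27me3 they were 46 at the common floor and 7 against chromosomes 1 to 22 together. With 1 replicate left out they ran from 0 to 1421 for Ksu (617 without control replicate 1, 1421 without control replicate 2, 1 without succinate replicate 2) and from 0 to 274 for H3K27me3. The lone library of a treatment is then assumed to vary like the other pair, so those counts rest on the spread of 2 libraries.

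The difference between antibodies of 2.38 had an exact permutation p of 0.0556, the smallest possible, with labels exchanged only within treatments. Within the replicate block (2.38) the exact permutation p was 0.125. Its size ranged from 1.68 against the flanks to 4.93 by the median gene, and from 2.29 to 2.48 with single replicates left out. The labels share replicate numbers but do not say what a number stands for. Deviations of same-numbered libraries correlated at 0.15 for Ksu over 3201 genes and 0.28 for H3K27me3 over 1118 genes, and in the long genes at 0.66 over 64 and 0.21 over 38. With the replicate number as a block, limma called 0 genes for Ksu and 38 for H3K27me3, of which 0 were long genes. Unknown depth and 2 libraries per group limit all differences.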

Other observations

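Chromosome X was left out of the rule and holds 3 protein-coding genes of this length, DMD, IL1RAPL1 and IL1RAPL2. DMD encodes dystrophin, which links the cytoskeleton of muscle to the matrix, and the other 2 encode interleukin-receptor-like proteins of synapses. Their pooled Ksu ratio to chromosome X was 1.09 and 1.46 in the control libraries, beside 0.984 and 0.975 after succinate, without overlap between treatments. IL1RAPL1 had Ksu ratios of 1.21, 1.59, 0.885 and 0.885, and DMD had 0.910, 1.46, 0.693 and 0.869, both with the succinate libraries lower. IL1RAPL2, with 1.28, 1.33, 1.63 and 1.27, overlapped. H3K27me3 was found only in DMD, in 0.353% of its body in control replicate 1 and 0.481% in succinate replicate 1.

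Bases outside protein-coding genes were also examined, since long genes are mostly intron. Control libraries had Ksu ratios of 1.05 and 1.06 there, and succinate libraries had 0.945 and 0.917. The long genes and the bases outside genes were thus both lower in succinate. The other genes of 100 kb or more were higher when pooled. Those of 500 to 1000 kb among them were lower, with a log2 difference of -0.24. Long genes held 5.30% and 4.75% of all Ksu-covered bases in control and 3.51% and 3.06% in succinate, beside 3.07% of the chromosomes. For H3K27me3 they held 0.938%, 0.734%, 0.740% and 0.625% of covered bases.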
